A study of Mus musculus with 1479 samples.

Results

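Mural cells are the contractile and supporting cells on the outside of blood vessels, that is the smooth muscle cells of arterioles and venules and the pericytes of capillaries. The compared cells were the mural cells of the mouse bladder, cells with cluster label 10, that had been sorted from either of a pair of reporter lines. In Cspg4dsRED mice a red fluorescent protein marks cells that use Cspg4, the gene of the NG2 proteoglycan, and in PdgfrbGFP mice a green one marks cells that use Pdgfrb, the receptor for platelet-derived growth factor B. Of 1479 cells in the series, 110 were compared. Of these, 65 came from Cspg4dsRED mice, with 49 on plate bladder_352s and 16 on plate bladder_689s, and 45 came from PdgfrbGFP mice, with 4 on bladder_074s, 21 on bladder_515s and 20 on bladder_881s. The other 15 mural cells, 12 of Acta2GFP and 3 of C57BL6 mice, served as a reference, as did the fibroblasts of PdgfraGFP mice on bladder_689s, where a green protein marks cells that use Pdgfra.

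All mice were males of 10 to 20 weeks on a C57Bl6/J background. Both reporters are transgenes built on bacterial artificial chromosomes (the strains Tg(Cspg4-DsRed.T1)1Akik/J and Tg(Pdgfrb-eGFP) JN169Gsat/Mmucd), so a long genomic stretch around Cspg4 or Pdgfrb was inserted elsewhere in the genome in addition to the mouse's own copies. Which neighbouring genes either insert carries is not given in the sources used here, and a count per gene cannot tell a read of the insert from a read of the mouse's own gene. Per the study's methods, cells were sorted by a reporter or by antibodies to the platelet-derived growth factor receptors α or β. Cells with the endothelial protein CD31 were left out. The labels give the strain and not the gate. Each cell, 1 per well, was made into a Smart-seq2 library, which holds full-length cDNA without molecular identifiers. The study also used combinations of strains. No plate held mural cells of both lines and the labels name no animal, so line and plate cannot be told apart. Each line therefore counted as 1 sample, no test was made, and a difference was kept only where it held on each plate.

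NG2 and the platelet-derived growth factor receptor β are textbook surface markers of mural cells, and sorting strategies for these cells rest on both. Platelet-derived growth factor B from endothelium recruits mural cells through the receptor. Pericytes are known for Rgs5, Kcnj8 and Abcc9, while smooth muscle cells are known for contractile proteins such as the smooth muscle actin Acta2 and the smooth muscle myosin heavy chain Myh11.

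Sequencing depth differed between plates. The mural cells held between 50267 and 320213 endogenous reads in Cspg4dsRED and between 54872 and 439747 in PdgfrbGFP, with plate medians of 109118 to 151224 and 95533 to 301744 reads. Every cell was therefore thinned at random to 50000 endogenous reads, and every level below is the mean of these thinned reads per cell of a plate. At this equal depth the median Cspg4dsRED mural cell had reads of 1707 genes on bladder_352s and of 2244 on bladder_689s. The median PdgfrbGFP mural cell had 3912 on bladder_074s, 2902 on bladder_515s and 4202 on bladder_881s. The plates of the lines did not overlap, and the mean of plate medians was 1975.5 genes against 3672. The fibroblast-cluster cells of the same plates stood in the same order, with medians of 2304 and 2454 genes in Cspg4dsRED against 3296.5 to 4531 in PdgfrbGFP. On bladder_689s itself, the fibroblasts of PdgfraGFP mice had a median of 2362 genes, close to the 2454 of the Cspg4dsRED fibroblasts beside them. The difference in genes detected was thus present in both kinds of cell, and its part in the gene differences below was not tested.

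**Figure D1:**
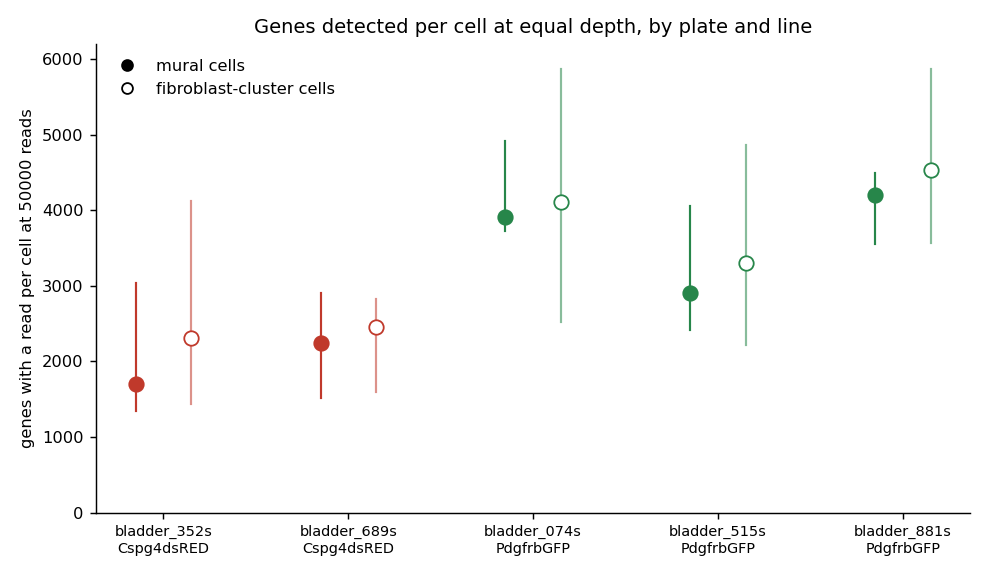
Genes with at least 1 read per cell after thinning to 50000 endogenous reads (y axis) for each plate and line (x axis). Circles are plate medians and lines run from the lowest to the highest cell, with filled circles for mural and open circles for fibroblast-cluster cells. Both kinds of cell had fewer genes on the Cspg4dsRED plates (medians 1707 to 2454) than on the PdgfrbGFP plates (2902 to 4531).

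Per the study's methods, clusters were made from these same transcriptomes, so mural markers describe the cells and are no check of the label. Reads of Acta2 and Tagln, which encode smooth muscle actin and the actin-binding protein transgelin, were present in 100% of the mural cells on all 5 plates. In fibroblast-cluster cells of these plates, Acta2 reads were present in 63.1% to 90% and Tagln reads in 20% to 57.9% of cells. Acta2 averaged 648.02 thinned reads per cell on bladder_352s and 500.25 on bladder_689s, against 296.8 on bladder_074s, 677.1 on bladder_515s and 256.3 on bladder_881s. The lines overlapped, since the highest plate was a PdgfrbGFP one. Myh11 averaged 192.7 and 159.5 reads in Cspg4dsRED against 142.5, 206.6 and 136.95 in PdgfrbGFP, again with overlap, while the fibroblasts of these plates held between 0.232 and 1.12 Myh11 reads. Rgs5, the pericyte marker, averaged 20.4 and 56 reads against 78, 9.48 and 82.1, so it varied between plates of 1 line as much as between the lines. On bladder_074s, with only 4 mural cells, 95.2% of the Rgs5 reads came from 1 cell.

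The clearest differences toward Cspg4dsRED lay at 3 genes beside the Cspg4 gene, which was also called. A gene was measured when its level, the mean of the plate means of a line, reached 1 thinned read per cell in either line. It was called when the levels differed at least 2-fold on the log2(level + 0.25) scale, every plate of the higher line lay above every plate of the other in all 6 plate pairs, and at least 25% of the cells of each plate of the higher line had a read. Of 8324 measured genes, 72 (0.865%) were called higher in Cspg4dsRED and 4.42% higher in PdgfrbGFP. Odf3l1, Cspg4, Snx33 and Imp3, which follow each other on chromosome 9, were all among the 72. They formed the only run of 4 neighbouring protein-coding genes called in 1 direction. The other 68 genes higher in Cspg4dsRED stood alone, and the genes higher in PdgfrbGFP formed 12 runs of 2 and 2 runs of 3. Together the 4 genes span 89.74 kb, chr9:56848659-56938398 in GRCm38.

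Cspg4 (plus strand, chr9:56865033-56899870) averaged 55.1 thinned reads per cell (95% Poisson interval 53.1 to 57.3) on bladder_352s and 53.3 (49.7 to 56.9) on bladder_689s. It averaged 6.25 (4.04 to 9.23) on bladder_074s, 28.9 (26.7 to 31.3) on bladder_515s and 17.7 (15.9 to 19.6) on bladder_881s. Both Cspg4dsRED plates lay above all 3 PdgfrbGFP plates, a difference of 1.61 on the log2 scale. All 65 Cspg4dsRED cells had a Cspg4 read, against 38 of 45 PdgfrbGFP cells (84.4%, exact Clopper-Pearson 95% interval 70.5 to 93.5%). Cells of this line carry a Cspg4 reporter by which they could be sorted, so this gene is tied to how cells could be chosen. The intervals cover counting error only, since reads copied from 1 molecule are not independent, and the spread between cells was wider: on bladder_352s the median cell held 41 Cspg4 reads, and 10.2% of the reads came from 1 cell.

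Odf3l1 (minus strand, chr9:56848659-56864679), a relative of a gene for the outer dense fibres of sperm tails, begins 0.354 kb from the start of Cspg4 on the opposite strand. It averaged 13.9 thinned reads per cell (12.8 to 14.9) on bladder_352s and 5.94 (4.80 to 7.26) on bladder_689s, and it had no read in any PdgfrbGFP mural cell. Reads were present in 20 of 49 and 8 of 16 Cspg4dsRED cells, against 0 of 45 PdgfrbGFP cells, which limits the share to 6.67% if the limit of a count of 0 is set at 3 counts, or to 7.87% by the exact Clopper-Pearson interval. Against a floor of 3 reads over the 45 cells, the level was at least 148.5-fold higher in Cspg4dsRED. The difference of 5.34 on the log2 scale was 4.63 without bladder_352s. The 12 Acta2GFP and 3 C57BL6 mural cells had no Odf3l1 read either.

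Snx33 (minus strand, chr9:56917193-56928371) encodes a sorting nexin of membrane traffic and lies 17.3 kb past the end of Cspg4. It averaged 34.1 thinned reads per cell (32.5 to 35.8) and 38 (35.04 to 41.1) on the Cspg4dsRED plates, and 3.75 (2.10 to 6.19), 3.71 (2.94 to 4.64) and 4.55 (3.66 to 5.59) on bladder_074s, bladder_515s and bladder_881s. The plates of each line lay close together and the lines were apart by 3.09 on the log2 scale. Reads fell in 47 of 65 Cspg4dsRED cells (72.3%, 59.8 to 82.7%) and 12 of 45 PdgfrbGFP cells (26.7%, 14.6 to 41.9%). Within bladder_352s the median cell held 2 Snx33 reads against a mean of 34.1, so the level was uneven between cells.

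Imp3 (plus strand, chr9:56937475-56938398), a protein of the U3 ribonucleoprotein that processes ribosomal RNA, lies 37.6 kb past the end of Cspg4. It averaged 50.3 thinned reads per cell (48.3 to 52.3) and 70.9 (66.8 to 75.1) in Cspg4dsRED against 6.25 (4.04 to 9.23), 2.57 (1.93 to 3.36) and 6.10 (5.07 to 7.28) in PdgfrbGFP. The lowest plate pair still differed by 2.96 on the log2 scale, and the lines by 3.54. Unlike Snx33, Imp3 was spread over the cells: the median Cspg4dsRED cell held 48 reads on bladder_352s and 75 on bladder_689s, against medians of 5.5, 0 and 1 in PdgfrbGFP. A read of Snx33 or Imp3 was present in 47 of 49 and 16 of 16 Cspg4dsRED cells and in 3 of 4, 12 of 21 and 15 of 20 PdgfrbGFP cells. The 12 Acta2GFP mural cells on bladder_515s had levels of 5.33 for Snx33 and 1.75 for Imp3, and the 3 C57BL6 cells 6.67 and 7.33, all near the PdgfrbGFP plates.

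The next genes on either side were not called in mural cells. Snupn, which encodes a nuclear import adaptor for small nuclear ribonucleoproteins and begins 51.01 kb past Cspg4, averaged 13.6 and 1.81 reads in Cspg4dsRED against 0, 2.29 and 0.10 in PdgfrbGFP. The line difference was 2.93 on the log2 scale, but bladder_689s lay below bladder_515s, so Snupn was not called here. Beyond it, Ptpn9, a tyrosine phosphatase gene 95.1 kb past Cspg4, averaged 5.20 and 1.44 against 7.75, 0.476 and 3.10 reads, with full overlap. On the other side Lingo1, a neuronal membrane protein gene at 68.6 kb, had no read in any mural cell of the compared lines. Farther out on that side, Tspan3 differed by -0.19 on the log2 scale. These neighbours beyond the 4 called genes were also chosen after their values were seen.

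The starts of Cspg4, Snx33 and Imp3 are shown because these genes carried the difference together. Each sequence runs 5′ to 3′ on the gene's own strand from 250 bases before to 50 after the RefSeq start (build GRCm38.p6), which lay within 71 bases of the GENCODE start for all 3 genes. Capitals mark matches on either strand to CCAAT, to the GC box written as GGGCGG, or to the TATA box, written as TATAAA, and the smooth muscle CArG box was also searched.
Cspg4, chr9:56864854-56865153, plus strand: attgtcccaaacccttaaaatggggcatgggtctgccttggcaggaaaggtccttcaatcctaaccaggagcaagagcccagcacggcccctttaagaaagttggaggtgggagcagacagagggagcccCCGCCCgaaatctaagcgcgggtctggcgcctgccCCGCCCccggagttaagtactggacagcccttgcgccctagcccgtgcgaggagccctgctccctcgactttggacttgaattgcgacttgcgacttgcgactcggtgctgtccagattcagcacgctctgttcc
Snx33, chr9:56928322-56928621, minus strand: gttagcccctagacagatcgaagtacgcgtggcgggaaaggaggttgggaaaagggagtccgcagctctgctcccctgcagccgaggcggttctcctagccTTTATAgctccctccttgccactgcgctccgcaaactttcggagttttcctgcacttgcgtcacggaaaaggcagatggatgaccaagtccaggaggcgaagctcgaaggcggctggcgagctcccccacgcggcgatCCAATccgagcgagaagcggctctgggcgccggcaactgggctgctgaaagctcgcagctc
Imp3, chr9:56937250-56937549, plus strand: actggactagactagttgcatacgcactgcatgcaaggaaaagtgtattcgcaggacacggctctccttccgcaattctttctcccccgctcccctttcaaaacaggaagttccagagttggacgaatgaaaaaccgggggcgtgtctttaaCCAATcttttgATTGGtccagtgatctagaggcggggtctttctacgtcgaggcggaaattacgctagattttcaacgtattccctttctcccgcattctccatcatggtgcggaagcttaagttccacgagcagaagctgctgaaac
No motif was shared by all 3. The Cspg4 window held 2 GGGCGG matches on the reverse strand, which occurred in 35.6% of 32817 promoters of the same length. The Snx33 window held CCAAT on its own strand, a sequence found in 37.4% of promoters, and TATAAA on the reverse strand, found in 13.6%. The Imp3 window held CCAAT once on each strand. None held a CArG box, found in 1.63% of promoters. The windows held 17, 25 and 17 CpG dinucleotides against a median of 7 over all promoters. A match is a description of the letters and no site of a factor.

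**Figure D2:**
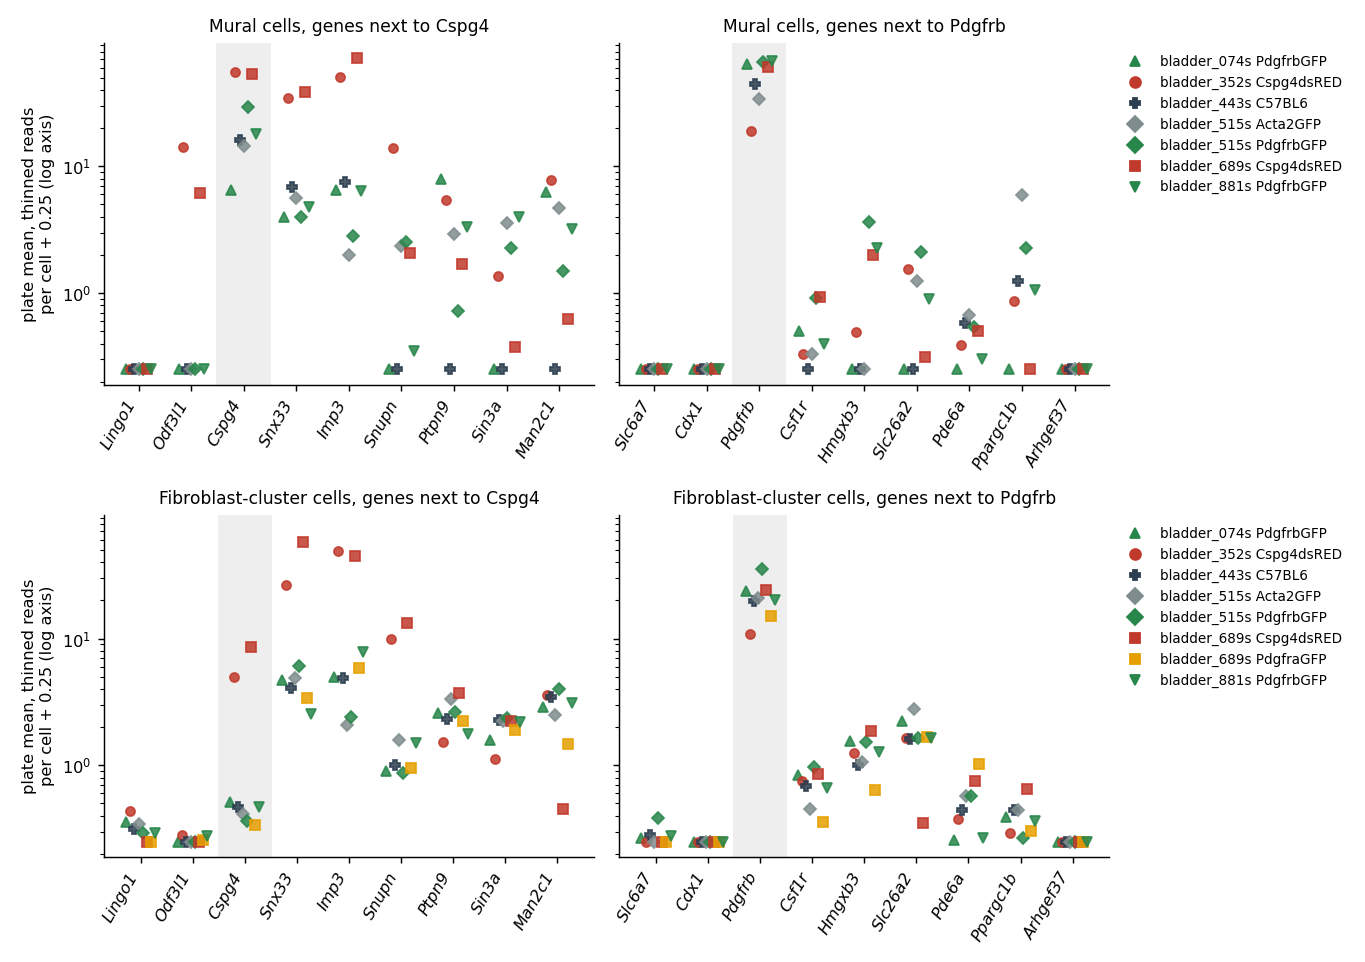
Plate means of thinned reads per cell + 0.25 (y axis, log scale) for the protein-coding genes from 2 places before to 6 places after Cspg4 (left) and Pdgfrb (right), in gene order along the chromosome, in mural cells (top) and fibroblast-cluster cells (bottom). Each symbol is 1 plate and line. The red Cspg4dsRED symbols stand apart at Odf3l1, Cspg4, Snx33 and Imp3 in mural cells and at Cspg4, Snx33, Imp3 and Snupn in fibroblasts, whereas beside Pdgfrb no measured gene of mural cells has its green PdgfrbGFP symbols apart from the red ones.

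The fibroblasts of the same plates carried part of this pattern. Fibroblast-cluster cells numbered 10 on bladder_689s and over 100 on each of the other 4 plates. Their Snx33 level was 26.4 and 57.2 thinned reads per cell in Cspg4dsRED against 4.44, 5.77 and 2.29 in PdgfrbGFP, a difference of 3.25 on the log2 scale. Their Imp3 level was 48.7 and 44.2 against 4.70, 2.14 and 7.56, a difference of 3.21. Both differences were about the size of those in mural cells (3.09 and 3.54). Imp3 reads were present in 100% of the Cspg4dsRED fibroblasts on both plates.

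Cspg4 itself, which fibroblasts hardly use, averaged 4.71 and 8.30 reads in Cspg4dsRED fibroblasts against 0.264, 0.113 and 0.223 in PdgfrbGFP fibroblasts. A Cspg4 read was present in 27.2% and 50% of these Cspg4dsRED fibroblasts and in 2.78%, 3.75% and 7.44% of the PdgfrbGFP ones. Snupn, not called in mural cells, met the rule in fibroblasts, with 9.62 and 12.9 reads against 0.644, 0.619 and 1.24. Odf3l1 was the exception, with 0.032 and 0 reads in Cspg4dsRED fibroblasts and at most 0.0248 in PdgfrbGFP. Of the 4 genes called in mural cells it was the one not called in fibroblasts of the same plates.

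Bladder_689s allowed the same comparison within a plate, for fibroblasts only, between 10 Cspg4dsRED and over 100 PdgfraGFP cells. The PdgfraGFP fibroblasts averaged 0.0884 Cspg4, 3.17 Snx33, 5.58 Imp3 and 0.707 Snupn reads per cell, near the values of the other lines. Against them the Cspg4dsRED fibroblasts were higher by 4.66 for Cspg4, 4.07 for Snx33, 2.93 for Imp3 and 3.78 for Snupn on the log2 scale. The differences between plates were 3.91, 3.25, 3.21 and 3.41, so within the plate 3 of the 4 genes differed by more and Imp3 by less. In the Cspg4dsRED fibroblasts of this plate, 75.9% of the Cspg4 reads came from 1 of the 10 cells.

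Around the other reporter gene little could be measured, since Hmgxb3 and Cd74 alone of its 12 nearest protein-coding genes reached 1 read per mural cell in either line. Pdgfrb (plus strand, chr18:61045150-61085061) averaged 18.8 (17.6 to 20.03) and 60.2 (56.4 to 64.1) thinned reads per cell in Cspg4dsRED mural cells against 64.3 (56.6 to 72.6), 66.1 (62.7 to 69.7) and 67.1 (63.6 to 70.8) in PdgfrbGFP. The Cspg4dsRED plates lay below all PdgfrbGFP plates, but bladder_689s by little, and the difference of -0.73 on the log2 scale stayed under 2-fold. Leaving out 1 plate at a time moved it between -1.80 (without bladder_689s) and -0.13 (without bladder_352s). A Pdgfrb read was present in 39 of 65 Cspg4dsRED cells (60%, 47.1 to 71.96%) and in 45 of 45 PdgfrbGFP cells. The latter came from a reporter line of this gene. Per the study's methods, cells without Pdgfra or Pdgfrb were left out of its dataset, so both shares are tied to how cells were chosen. Of the nearest genes, Slc6a7 and Cdx1 had no read in these cells, and Csf1r and Hmgxb3 differed by 0.07 and -0.71. Cd74, 232.5 kb away, was called higher in Cspg4dsRED and is described with the immune genes below.

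Beyond the Cspg4 stretch more genes were called higher in PdgfrbGFP than in Cspg4dsRED. Without any demand on size or cells, the plates of the lines did not overlap for 9.13% of genes in the direction of Cspg4dsRED and for 11.6% in that of PdgfrbGFP. Plates in random order, 2 against 3, would also separate for a share of genes of this order, so separation alone marks no line difference. The median difference of all measured genes was -0.12 on the log2 scale. At a 4-fold threshold the shares called were 0.120% and 1.37%. The shares depended on which plates had to concur. They were 6.97% and 9.02% without bladder_352s, 2.59% and 8.69% without bladder_689s, 1.41% and 11.5% without bladder_515s, 2.63% and 6.36% without bladder_881s, and 1.14% and 6.15% without bladder_074s. In fibroblasts of the same plates, 51 of 8169 measured genes (0.624%) were higher in Cspg4dsRED and 7.27% in PdgfrbGFP, or 7.9% in either direction, against 5.29% in mural cells. The excess in the PdgfrbGFP direction was therefore present in both kinds of cell.

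Some of the calls in mural cells were also made in fibroblasts. Of the 72 genes higher in Cspg4dsRED, 64 were measured in fibroblasts, 6 had the same call there and 2 the opposite one. These 6 were Snx33, Imp3, Cspg4, Cd74, Ptp4a3 and Lgals3 (the last chosen after its values were seen), and make up 8.33% of the 72 and 11.8% of the 51 fibroblast calls, beside a share called of 0.624% over all genes measured in fibroblasts. Of the genes higher in PdgfrbGFP, 91.03% were measured in fibroblasts and 70 had the same call, which is 19.02% of the mural and 11.8% of the fibroblast calls in that direction, beside 7.27% over all genes. The fibroblasts came from the same plates as the mural cells. The Acta2GFP mural cells of bladder_515s came from a further reporter line. They lay nearer to Cspg4dsRED for 27 of the 72 genes higher in Cspg4dsRED (37.5%, against 35.48% of all measured genes with a difference above 0). For the genes higher in PdgfrbGFP this share was 41.85%, against 57.9% of all measured genes with a difference below 0. These cells shared bladder_515s with 1 of the PdgfrbGFP groups, and the part of the plate in this was not tested. The 3 C57BL6 mural cells lay nearer to Cspg4dsRED for 21 of the 72 (29.17%, against 23.92%) and for 68.75% of the others (against 73.07%).

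Beside the Cspg4 stretch, the genes higher in Cspg4dsRED with the clearest separation of plates were of varied function. Of Prph, Acaa2, Rhog, Glrx5, Manf, Gm20425 and Gm49322, Acaa2 alone was called in each of 17 alternative settings, which leave out the 4-fold threshold, the other minimum levels and the missing minimum share of cells. Prph encodes peripherin, an intermediate filament protein best known from peripheral neurons. It averaged 18.4 and 8.56 reads against 0, 1.76 and 1.75, a difference of 3.27 on the log2 scale. Its reads came from 13 of 49 and 5 of 16 Cspg4dsRED cells and from 0 of 4, 2 of 21 and 3 of 20 PdgfrbGFP cells, and the fibroblasts of these plates held at most 0.304. Without bladder_352s the difference was 2.63. Acaa2, a mitochondrial enzyme of fatty acid oxidation, averaged 13.7 and 15.6 reads against 2.50, 6.05 and 6.70, and Rhog, a small GTPase, 8.69 and 9.56 against 0.25, 4.33 and 4.2. Glrx5, a mitochondrial glutaredoxin, averaged 5.04 and 4.56 against 1.5, 0.143 and 1.65. Acaa2 and Rhog had a read in fewer Cspg4dsRED than PdgfrbGFP cells, at 43.1% against 60% and 33.8% against 44.4%, while Glrx5 had one in 30.8% against 13.3%.

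Manf, a factor of the endoplasmic reticulum, averaged 4.10 and 4.12 reads against 0, 0.762 and 1.65, Gm20425 4.76 and 2.94 against 0, 0.714 and 0.85, and Gm49322 7.59 and 9.38 against 1.25, 0.143 and 3.35. Gm20425 was detected in 43.1% of Cspg4dsRED and 15.6% of PdgfrbGFP cells, Manf in 30.8% and 31.1% and Gm49322 in 29.2% and 31.1%. Gm20425 shares exons with Srprb and Trf on the same strand, and exons of Manf overlap those of genes transcribed the other way. Reads in these exons could belong to either gene, for Manf because the protocol holds no strand. Without bladder_881s the difference of Manf was 2.79 in place of 2.05 and that of Gm49322 3.21 in place of 2.25. In all, 26 of the 72 genes (36.11%) and 90 (24.46%) of those higher in PdgfrbGFP overlapped another gene's exons, beside 25.44% of all measured genes.

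Among the abundant genes, Ptp4a3, a protein tyrosine phosphatase, averaged 175.1 and 113.5 reads against 85.5, 63.05 and 49.1, a difference of 1.13 on the log2 scale. Cyclin D2 (Ccnd2) averaged 35.4 and 38.6 against 3.75, 24 and 25.5, and parathymosin (Ptms) 25.3 and 35.8 against 16.8, 10.8 and 16.3, both 1.05. All 3 lay just past 2-fold. A read was present in 95.4%, 76.9% and 86.2% of Cspg4dsRED cells and in 93.3% of PdgfrbGFP cells for each. Ptp4a3 was at 0.78 without bladder_352s and 0.96 without bladder_881s, Ccnd2 at 0.58 without bladder_074s and 0.99 without bladder_689s, and Ptms at 0.88 without bladder_515s and 0.78 without bladder_689s.

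**Figure D3:**
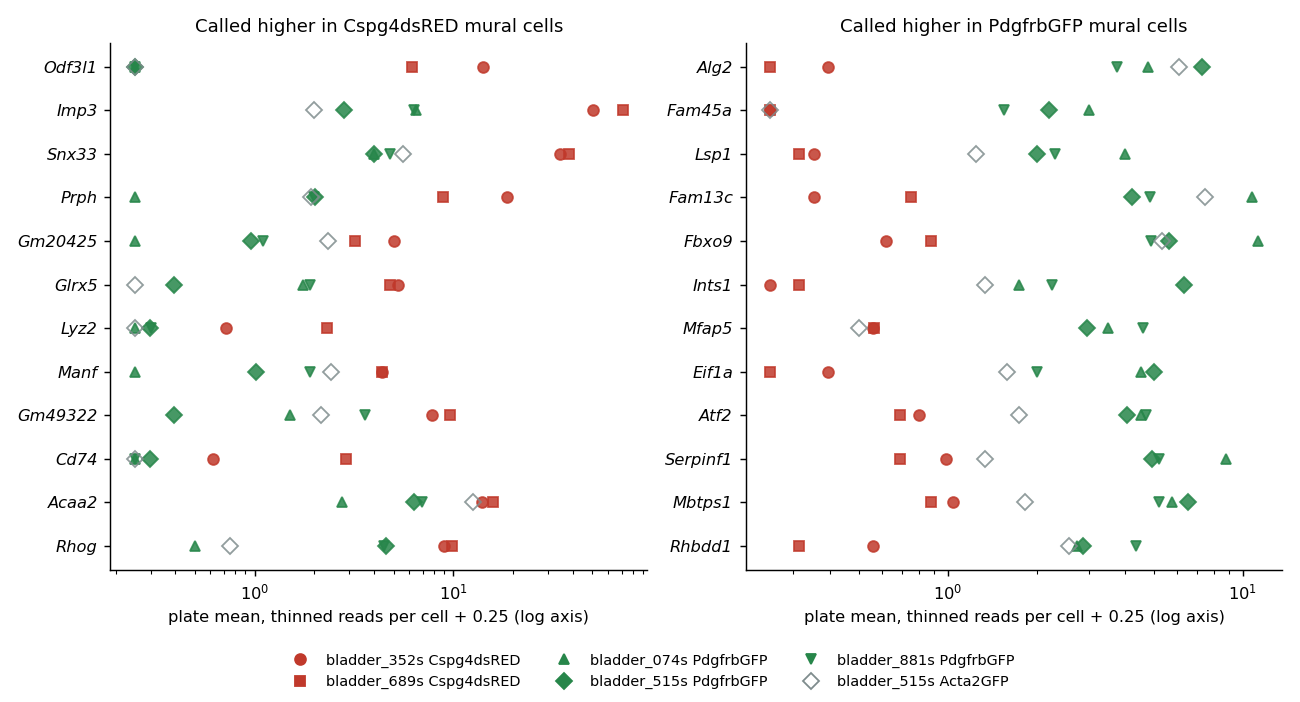
Plate means of thinned reads per cell + 0.25 (x axis, log scale) for the 12 protein-coding genes per direction with the largest ratio in their closest plate pair. Red symbols are Cspg4dsRED plates, filled green symbols PdgfrbGFP plates and open symbols the Acta2GFP cells of bladder_515s, which were not used for the calls. Odf3l1, Imp3 and Snx33 have the widest gaps on the left, and all 12 genes on the right lie below 1 read per cell on both Cspg4dsRED plates.

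The genes higher in PdgfrbGFP with the clearest separation were low in level. Alg2, a mannosyltransferase of protein glycosylation, averaged 0.143 and 0 reads in Cspg4dsRED against 4.50, 7.00 and 3.50, a difference of -4.03 on the log2 scale. It was detected in 2 of 49 and 0 of 16 Cspg4dsRED cells, against 3 of 4, 6 of 21 and 6 of 20 PdgfrbGFP cells. Of the other genes with low levels, Fam13c, Fbxo9 and Eif1a were called in each of the same 17 alternative settings, while Fam45a, Ints1 and Rhbdd1, like Alg2, lost their call in at least 1. Fam45a had no read in the 65 Cspg4dsRED cells (at most 4.62% of cells by the 3-count limit and 5.52% by the exact interval). It averaged 2.75, 1.95 and 1.30 in PdgfrbGFP, 43.4-fold higher than 3 reads over the 65 cells. This fold is likewise no lower bound, since the 78 Fam45a reads came from 14 PdgfrbGFP cells. Fam13c, Fbxo9 (a subunit of a ubiquitin ligase), Ints1 (of the Integrator complex), Eif1a (a translation initiation factor) and Rhbdd1 (a rhomboid protease) differed by -3.58, -3.28, -3.61, -3.58 and -2.94. On the Cspg4dsRED plates none of these 5 reached 1 read per cell. Without bladder_689s Fam13c was at -4.23, and without bladder_515s Ints1 was at -2.83.

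The transcription factor Atf2 averaged 0.551 and 0.438 reads against 4.25, 3.81 and 4.45, a difference of -2.57. Mbtps1, the site-1 protease that activates membrane-bound transcription factors, averaged 0.796 and 0.625 against 5.50, 6.29 and 4.95, a difference of -2.60. For both, the PdgfrbGFP plates lay close together and the fibroblasts of these plates differed in the same direction by -1.24 and -1.39.

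Genes of higher level in this direction included S1pr3, a receptor for sphingosine 1-phosphate. It averaged 20.6 and 10.8 reads in Cspg4dsRED against 69, 46.7 and 44.9, a difference of -1.75, and its fibroblast difference was -1.79 at levels under 1 read. Adamts1, a secreted metalloprotease, averaged 16.5 and 23.9 against 55.3, 99.5 and 45.7. Cavin1, a coat protein of caveolae, averaged 37 and 37.9 against 122.75, 59.4 and 78.3, a difference of -1.21 that was -0.87 without bladder_074s. Pls3, which bundles actin, averaged 9.12 and 34.9 against 47, 50.1 and 55.1. Its difference of -1.19 rested mainly on bladder_352s, as it was -0.54 without that plate and -2.44 without bladder_689s.

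Fibroblast genes held the most calls of the lists examined. Of 18 fibroblast markers (collagens, small proteoglycans and other matrix and surface genes), all measured, 9 were called higher in PdgfrbGFP mural cells and 0 in Cspg4dsRED, beside 4.42% and 0.865% of all measured genes, and the median difference was -2.20 on the log2 scale against -0.12 over all genes. Decorin (Dcn), a collagen-binding proteoglycan, averaged 9.69 and 3.50 reads against 95.3, 23.3 and 75.1. It was present in 93.8% to 100% of the mural cells on every plate. Without bladder_352s, where 52.8% of its reads came from 1 cell, its difference of -3.24 was -4.11. Lum, Fbln1, Col3a1, Cd34 and Pi16, chosen after their values were seen, were also called, at -2.57, -3.17, -1.17, -3.04 and -3.19. Mfap5, a microfibril protein, averaged 0.306 and 0.313 against 3.25, 2.71 and 4.35, and complement C3 was called at -2.44. Pdgfra, the receptor that marks fibroblasts, averaged 0.163 and 0.0625 against 1.25, 0.571 and 2.20 reads.

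Each marker was lower in mural cells than in fibroblasts of the same plate and line. Relative to fibroblasts of the same plate and line, the median marker stood in mural cells at 1.81% and 2.38% on the Cspg4dsRED plates and at 13.4%, 2.06% and 12.2% on bladder_074s, bladder_515s and bladder_881s. The highest single values were 43.4% in Cspg4dsRED and 56.7% in PdgfrbGFP, both of Serping1, and Dcn stood at 29.7% on bladder_074s and 26.2% on bladder_881s. Of the 18 markers, 15 stood above both Cspg4dsRED plates on bladder_074s, 18 on bladder_881s and 10 on bladder_515s, where 3 stood below both. The summed level of the 18 markers was 321.5 and 320.9 reads per cell in Cspg4dsRED against 650, 298.4 and 536.4 in PdgfrbGFP. In fibroblasts themselves, 0 of the 18 markers were called in either direction and the median difference was 0.03. The part of fibroblast RNA in the other differences of these cells was not tested. Serpinf1 and Lsp1, which are not on the list but had 54.4 to 140 and 9.90 to 37.2 reads in fibroblasts, were likewise called higher in PdgfrbGFP mural cells. Serpinf1, a secreted serpin, averaged 0.735 and 0.438 reads against 8.50, 4.67 and 4.95, and Lsp1, an actin-binding protein, 0.102 and 0.0625 against 3.75, 1.76 and 2.05.

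**Figure D4:**
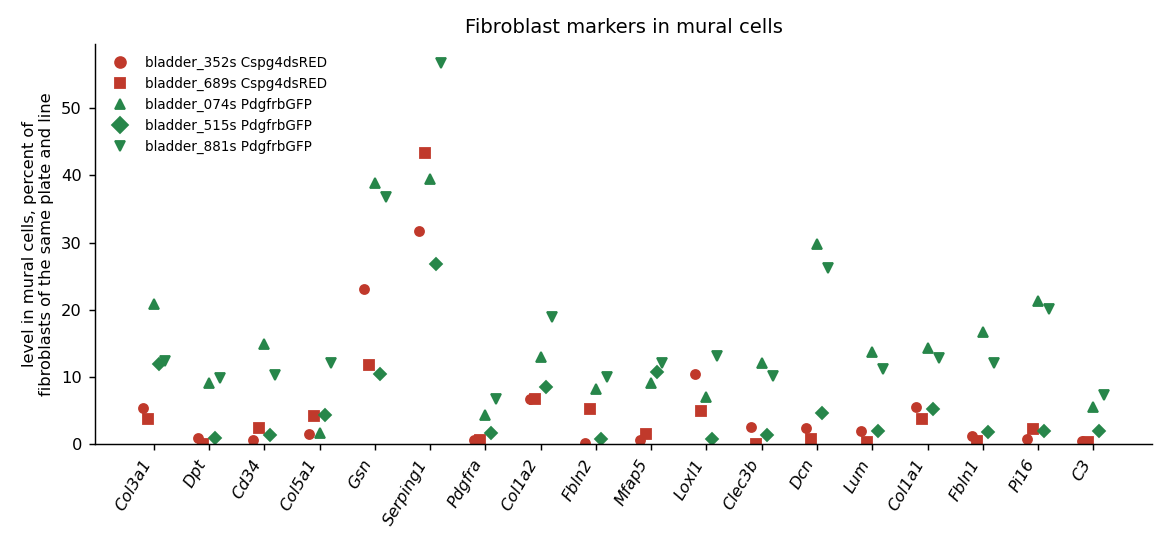
Level of each of 18 fibroblast markers in mural cells as a percentage of its level in fibroblast-cluster cells of the same plate and line (y axis). Red symbols are Cspg4dsRED plates and green symbols PdgfrbGFP plates. The green triangles of bladder_074s and bladder_881s (medians 13.4% and 12.2%) stand above both red symbols (medians 1.81% and 2.38%) for 15 and 18 of the markers, and the diamonds of bladder_515s (median 2.06%) for 10.

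Of 24 genes of the contractile apparatus, all measured, 0 were called in either direction, which for a list of this size is near the 5.29% called over all genes, and the median difference was 0.16 on the log2 scale, with a range of -0.94 to 0.67. Their summed level was 2687 and 2296 reads per cell in Cspg4dsRED against 1799.5, 2630 and 1726 in PdgfrbGFP. Bladder_515s stood with the Cspg4dsRED plates. Of 12 mural identity genes, 11 were measured and Cspg4 was the 1 called. Notch3, the receptor that mural cells require, averaged 34.7 and 32.9 against 45, 29.9 and 33.4, and Mcam 38.3 and 88.3 against 22.5, 94.7 and 38.1 reads, both with overlap. Desmin (Des), the muscle intermediate filament, differed by 0.60, also with overlap.

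No member of the pericyte or vasoactive lists was called, which for lists of this size is near the 5.29% called over all genes. Of 14 pericyte markers, 12 were measured, 0 were called, and the median difference was -0.06, with members between -3.60 and 2.79. Leaving out 1 plate moved this median to between -2.05 (without bladder_689s) and 0.52 (without bladder_881s). Their summed level was 71.04 and 124.4 reads per cell in Cspg4dsRED against 138.5, 33.7 and 169.7 in PdgfrbGFP, and the median cell ranged from 8 reads on bladder_515s to 75 on bladder_689s. The share of cells with an Rgs5 read was 34.7% and 62.5% against 50%, 28.6% and 85%. The share thus varied by plate within each line. Kcnj8, a potassium channel subunit of pericytes, averaged 3.69 and 15.5 reads against 0, 2.38 and 9.15, and Higd1b 3.98 and 3.31 against 0, 0.0476 and 10.8, with overlap in both. Of 29 vasoactive receptors and signalling genes, 20 were measured, 0 were called and the median was 0.01, or -0.90 without bladder_689s. Rgs4, a regulator of G protein signalling with the highest level on that list, averaged 57.4 and 76.4 against 109.75, 84.5 and 67.8. Of 17 Notch pathway genes, 13 were measured and 0 called, with a median of -0.09.

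Ion channels and calcium handling held 3 calls among 24 measured of 27 genes, all higher in PdgfrbGFP, with a list median of 0.08 (-0.42 without bladder_689s), beside 4.42% of all measured genes called in that direction. The clearest was Cacna1c, the pore of the L-type calcium channel, with 1.06 and 1.88 reads against 5.75, 5.81 and 6.05, a difference of -1.83. Its 3 PdgfrbGFP plates were nearly equal, and the Acta2GFP cells on bladder_515s held 2.33. Ano1, a calcium-activated chloride channel, averaged 4.08 and 7.81 against 12.8, 8.76 and 22.2, and Kcnmb1, a subunit of the large-conductance potassium channel, 10.1 and 1.88 against 21, 10.8 and 11.6. Both were weak calls, as leaving out a plate took Ano1 from -1.26 to -0.83 (without bladder_881s) or -0.88 (without bladder_352s). Kcnmb1 went from -1.24 to -0.51 without bladder_689s, -0.88 without bladder_074s and -2.79 without bladder_352s. These 2 were also the calls among the 7 measured of 11 visceral smooth muscle genes, whose median was -0.28 and moved between -0.88 (without bladder_352s) and 0.14 (without bladder_515s).

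Receptors for matrix had 3 calls, all higher in PdgfrbGFP, among 15 measured of 21 integrins and cadherins, with a median of -0.73 (-0.24 without bladder_352s), beside 4.42% of all measured genes and their median of -0.12. Itga1, the collagen-binding integrin α1, averaged 1.35 and 2.56 reads against 7.25, 17.5 and 8.25, a difference of -2.35, with a difference of -0.77 in fibroblasts. Itga8 averaged 4.73 and 7.25 against 11.5, 20.4 and 10.3. Their common partner Itgb1 averaged 12 and 39 against 49.5, 67.4 and 45.7. Its difference of -1.08 was -0.47 without bladder_352s, -0.90 without bladder_515s and -2.16 without bladder_689s, while that of Itga8 (-1.20) was -0.93 without bladder_352s and -0.84 without bladder_515s. Of 22 basement membrane genes, 17 were measured and 2 called higher in PdgfrbGFP, with a median of -0.03 that moved between -0.71 (without bladder_689s) and 0.42 (without bladder_352s). Nid1, which links laminin to collagen, averaged 0.878 and 1.81 against 8.50, 3.10 and 6.85, and Lama4, a laminin chain of vessels, 1.29 and 2.75 against 4.00, 4.86 and 4.10. Lama4, at -1.01, was at -0.61 without bladder_352s and -0.92 without bladder_515s, and turned to 0.14 when only cells of 75000 to 300000 reads were used.

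Pathways that act on mural cells are set beside the 5.29% of all measured genes called in either direction. Of 7 genes of the platelet-derived growth factor pathway, all measured, Pdgfra was the 1 called and the median was -0.60 (-1.16 without bladder_689s). Of 25 genes of transforming growth factor β and bone morphogenetic protein signalling, 20 were measured, 3 were called higher in PdgfrbGFP and 1 in Cspg4dsRED, with a median of -0.85 (-0.53 without bladder_515s). The type I receptor Bmpr1a averaged 1.86 and 1.00 reads against 6.50, 8.24 and 7.30, a difference of -2.18, but 80.2% of its reads on bladder_352s came from 1 cell. The Acta2GFP cells of bladder_515s had no Bmpr1a read. The receptor Tgfbr2 averaged 7.27 and 4.13 against 16.8, 12.9 and 11.1 and the ligand Tgfb2 1.45 and 1.44 against 1.5, 5.81 and 2.20. The co-receptor endoglin (Eng) went the other way, with 13.9 and 12.7 against 9.25, 1.29 and 6.20, a difference of 1.22, and was detected in 53.8% and 57.8% of cells. Leaving out 1 plate took Tgfbr2 from -1.22 to -0.88 (without bladder_689s), Tgfb2 from -1.01 to -0.31 and Eng to 0.76 (both without bladder_515s).

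Of 27 mural transcription factors, 17 were measured and Tbx2 was the 1 called, beside 0.865% of all measured genes called in its direction and 5.29% in either. This T-box repressor averaged 14.4 and 9.38 reads in Cspg4dsRED against 1.75, 5.43 and 5.35 in PdgfrbGFP, a difference of 1.45, and was present in 44.9% and 56.3% of cells against 25%, 38.1% and 35%. Fibroblasts of these plates held under 1 read of Tbx2. The list's median was -0.30, or 0.02 without bladder_515s.

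Genes that respond to dissociation and stress had 4 calls. Of 20 immediate-early genes, all measured, 2 were higher in PdgfrbGFP, beside 4.42% of all measured genes, and the median was -0.07, with a range of -0.83 (without bladder_352s) to 0.10 (without bladder_515s). Fosb averaged 14.7 and 14.4 reads against 44.5, 58.3 and 26.1, a difference of -1.54, and Klf2 7.00 and 8.94 against 14.3, 22.9 and 13.9, a difference of -1.07 that was -0.80 without bladder_515s and -0.91 without bladder_352s. Of 15 heat shock chaperones the small chaperone Hspb8 was called, with 10.6 and 7.13 against 1.75, 3.38 and 5.10, beside 0.865% of all measured genes called in that direction. Its reads came from fewer of the Cspg4dsRED cells, 30.6% and 25% against 75%, 33.3% and 75%. The list's median was -0.24, or -0.60 without bladder_352s and 0.06 without bladder_689s. Of 9 measured of 17 inflammatory genes, Nfkbia, the inhibitor of NF-κB, was the 1 called in the same direction, with 16.2 and 9.81 against 1.75, 5.29 and 8.70 reads, in 46.2% of Cspg4dsRED and 60% of PdgfrbGFP cells. Nfkbia, at 1.27, was at 0.87 without bladder_074s and also without bladder_352s, and the median of its list, -0.19, moved to between -1.07 (without bladder_352s) and 0.19 (without bladder_689s). Of 14 genes of hypoxia and glycolysis, 10 were measured and 0 called, with a median of -0.11 that ranged from -0.27 (without bladder_515s) to 0.30 (without bladder_689s).

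The medians of housekeeping groups shifted with the plates, and their calls stand beside the 5.29% of all measured genes called in either direction. Of 80 measured cytosolic ribosomal protein genes 0 were called, with a median of -0.09 that ranged from -0.49 (without bladder_689s) to 0.52 (without bladder_881s), and of 9 measured mitochondrially encoded genes 0, with a median of 0.00. Of 88 measured nuclear genes of oxidative phosphorylation, Ndufs1 and Sdhd were higher in PdgfrbGFP and Atp5f1 in Cspg4dsRED, with a median of -0.08 that ranged from -0.44 to 0.69 without the same plates. Ndufs1, at -1.25, was at -0.70 without bladder_074s, and Atp5f1, at 1.10, was at 0.77 without that plate and 0.98 without bladder_689s. Sdhd, at -1.58, was at -2.23 without bladder_352s. Of 39 Hox genes 5 were measured and 0 called, with a median of 1.06 that ranged from 0.36 (without bladder_689s) to 1.33 (without bladder_881s). The member with the highest level, Hoxa10, averaged 1.90 and 6.63 reads against 2.00, 1.10 and 1.40, with overlap.

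**Figure D5:**
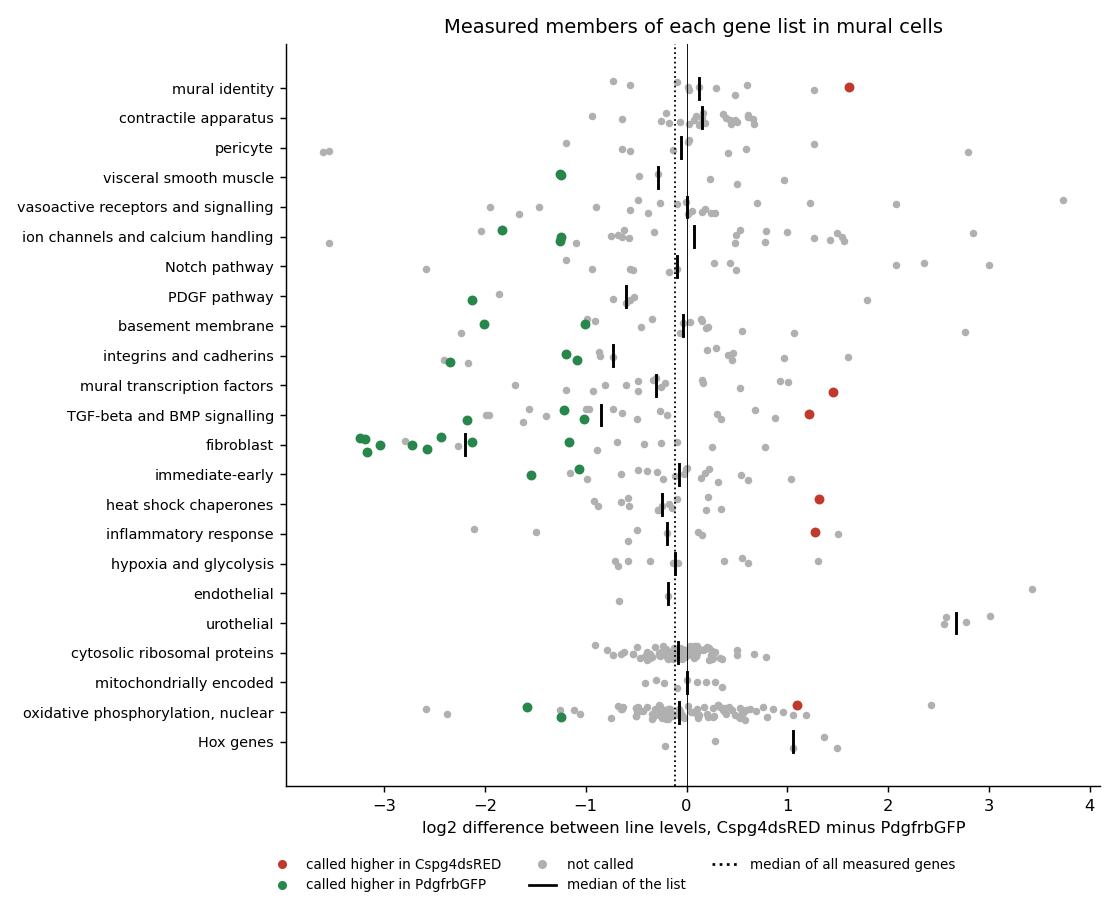
Difference between line levels on the log2(level + 0.25) scale, Cspg4dsRED minus PdgfrbGFP (x axis), for the measured members of each gene list with at least 3 of them (rows). Red and green points are genes called higher in Cspg4dsRED and PdgfrbGFP, black bars list medians, and the dotted line the median of all measured genes (-0.12). The fibroblast list is shifted furthest to the left (median -2.20), while the medians of the contractile, pericyte and vasoactive lists are 0.16, -0.06 and 0.01 and the members of the latter pair spread widely.

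Summed markers of each other cell type stood at a median of 0 to 7 thinned reads per mural cell on the 5 plates, with single cells far above on plates of both lines. The summed level of 8 endothelial markers was 1.73 and 23.4 reads per cell in Cspg4dsRED against 14.5, 1.48 and 3.60 in PdgfrbGFP. The highest cell held 58 of these reads on bladder_074s. The high value of bladder_689s came mainly from Cldn5, a tight junction protein, of which 98.6% of reads fell in 1 cell. The sum of 11 urothelial markers was 2.39 and 10.6 against 0, 0.0952 and 0, with 4 measured, 0 called and a median of 2.67, or 0.40 without bladder_689s and 3.39 without bladder_352s. Of these Krt8, a keratin, had 95.7% and 96.7% of its reads in 1 cell of each Cspg4dsRED plate. The sum of 6 Schwann cell and glial markers was 1.84 and 3.63 against 0, 0.381 and 0, and that of 8 red cell and skeletal muscle genes was 0.714 and 3.56 against 0.25, 2.14 and 2.15, with 41 reads in the highest cell of bladder_881s.

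Of 8 immune markers 2 were measured, Cd74 and Lyz2. Both were called higher in Cspg4dsRED, at few reads per cell, beside 0.865% of all measured genes. The sum of the 8 markers was 1.27 and 7.13 reads per cell in Cspg4dsRED against 0.50, 0.81 and 1.65 in PdgfrbGFP. The sums overlapped, since bladder_352s lay below bladder_881s. Cd74, the invariant chain of antigen presentation, averaged 0.367 and 2.63 reads, against 0, 0.0476 and 0, and was called. It was present in 14 of 49 and 15 of 16 Cspg4dsRED mural cells and in 0 of 4, 1 of 21 and 0 of 20 PdgfrbGFP cells, with at most 5 reads in a cell. Fibroblasts of the same plates held 0.632 and 4.00 Cd74 reads, in 29.6% and 90% of cells, and the PdgfraGFP fibroblasts of bladder_689s 1.07 reads in 29.9%. The macrophage lysozyme Lyz2 averaged 0.469 and 2.06 against 0, 0.0476 and 0.05 and was present in 28.6% and 87.5% of cells. The high shares were those of bladder_689s. Without that plate the differences of Cd74 and Lyz2 were 1.22 and 1.35, and without bladder_352s 3.43 and 3.03, in place of 2.72 and 2.42. The origin of these reads was not tested.

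The called genes also differed in composition. The genes higher in Cspg4dsRED had a median GC content of 54.6% and a median transcript length of 2848 bases, those higher in PdgfrbGFP 46.8% and 3843 bases, and all measured genes 50.2% and 3299 bases. In the 1660 measured genes with the lowest GC content the median difference was -0.32 on the log2 scale, with 0.120% of genes called higher in Cspg4dsRED and 7.35% in PdgfrbGFP. In the 1660 with the highest GC content it was 0.14, with 1.57% and 2.35%. Fibroblasts of the same plates showed the same order, with medians of -0.53 and -0.01. When the median of genes alike in GC content and length was put at 0, an alternative chosen after seeing the data, 1.25% and 3.29% of genes were called in place of 0.865% and 4.42%. The part of base composition in single calls was not tested. Odf3l1, Cspg4, Snx33 and Imp3 kept their call under this alternative.

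Within the plates, rows were counted only where they held cells of the same line. Mural cells lay in 5 of 11 such rows on bladder_352s and 4 of 11 on bladder_881s. They lay in 7 of 9 on bladder_515s and 4 of 4 on bladder_689s. Both of these plates also held cells of other lines, whose rows are not counted. On bladder_074s the 4 mural cells lay in 4 of 16 rows, the most that 4 cells can fill.  Whether rows were sorted with different gates is not given in the sources used here.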

How the data were processed

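The authors deposited 1 table of raw read counts per gene (46517 gene rows) and 92 spike-in rows for 1479 single bladder cells, 1 Smart-seq2 library each, with no molecular identifiers. Per the labels and methods, reads were aligned to mm10/GRCm38 and assigned to genes with featureCounts, and the labels name bcl2fastq, Bowtie, Bowtie2 and Subread. Groups came from the strain and cluster labels. Endogenous counts were thinned without replacement to 50000 reads per cell (0 mural cells were lost). Shares carry exact Clopper-Pearson and sums exact Poisson 95% intervals. A line is 1 sample, so no p-value was computed and the planned tests are descriptions. In simulated cells some genes were changed in 1 line and plates did not differ otherwise, unlike the data. There the call rule also called genes left unchanged, so calls carry no error rate. Genes were placed with GENCODE release 21. Named genes were the sort and mural identity genes, 12 protein-coding calls per direction by their closest plate pair, 6 per direction by level, and up to 4 calls (otherwise the highest member) per fixed list. Snupn and the other neighbours of Cspg4 and Pdgfrb were chosen after their values were seen. Members and lists were chosen with earlier results of these data known. Alternatives changed depth, scaling, filters, cells and plates, and 2 (base composition with length, and the highest cell left out) were chosen after seeing the data. Python 3.11.15, numpy 2.4.6, scipy 1.17.1, pandas 2.3.3 and matplotlib 3.10.9 were used. Doublets were not called here. Per the study's methods, the sort had a doublet gate with a generous limit, and cells with very many genes were removed as potential doublets.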

Additional observations from a re-analysis of the deposited data

Results flagged for a closer look

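Between mural cells and fibroblasts of the same plates, 3 genes were called in opposite directions, which was not tested as a difference. Gmppa, an enzyme of nucleotide sugar metabolism, differed by -1.05 on the log2 scale in mural cells and by 1.36 in fibroblasts. Its mural levels were 2.49 and 4.38 thinned reads per cell in Cspg4dsRED against 11.8, 4.95 and 5.35 in PdgfrbGFP, and its fibroblast levels 12 and 25.9 against 8.66, 6.66 and 6.31. Mrpl10, a protein of the mitochondrial ribosome, differed by 1.12 in mural cells and by -1.20 in fibroblasts. It averaged 10.0 and 9.5 reads against 4.25, 3.62 and 5.25 in mural cells. Cnp, known from myelinating cells, differed by 1.38 and -1.18, with 6.84 and 6.63 mural reads against 1.25, 3.76 and 2.30. The fibroblasts of bladder_689s, 10 cells, held 0.10 Mrpl10 and 0 Cnp reads. Exons of Mrpl10 and Cnp overlap those of Gm11574 and Dnajc7. The 3 genes were chosen because their calls were opposite.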

How the results depend on the processing

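No paired analysis was possible because the labels give no replicate number shared by the lines and no plate held mural cells of both. The share of measured genes called higher in Cspg4dsRED, 0.865%, and in PdgfrbGFP, 4.42%, became 0.120% and 1.37% at 4-fold, 6.54% and 9.69% with no minimum share of cells, and 1.14% to 6.97% and 6.15% to 11.5% with 1 plate left out, where fewer plate pairs had to separate. With a minimum level of 5 the latter was 7.26% of fewer genes. Centring on base composition and length gave 1.25% and 3.29%, and a second thinning seed 0.805% and 4.396%, where 49 of the 72 genes and 77.72% of those higher in PdgfrbGFP were called again, so part of each list depended on the random draw. Subtracting the fibroblast difference gave 2.27% in the first direction and reversed the line difference of Cspg4 (-2.30), the line difference of Snx33 (-0.16) and the line difference of S1pr3 (0.0381), since fibroblasts carried these differences too. With cells of 75000 to 300000 reads the line difference of Lama4 was 0.14, and the cause was not tested. Of 23 lists, 16 had a median below 0, and 9 with median-of-ratios scaling or the median gene at 0. The difference in genes detected, -1696.5, was -3151.17 without thinning. Fibroblast calls, 0.624% and 7.27%, were 2.03% and 11.6% in clusters 7 and 8 alone. This subset held 20 cells on bladder_352s and 4 on bladder_689s, and 22 of the 51 fibroblast calls toward Cspg4dsRED were made again. The main fibroblast comparison pooled all clusters but 10, and their mix was not matched between plates. Over 17 of 21 alternatives (not the 4-fold threshold, the other minimum levels or the missing minimum share of cells), 7 of the 72 genes and 47 of those higher in PdgfrbGFP were called each time, with Odf3l1, Acaa2 and Tbx2 among the 7. Depth limits genes under 1 read per cell, whose presence in a cell rests on few reads, and 4 mural cells stand for bladder_074s.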
